A study of Mus musculus with 8 samples.

Results

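The genes described here bind retinoic acid, make it, break it down or carry its signal to the nucleus: Aldh1a1, Aldh1a2, Aldh1a3, Crabp1, Crabp2, Cyp26b1, Rara, Rarb and Rarg. Every probe set whose platform annotation gave exactly 1 gene symbol, and that symbol was 1 of these 9, was taken. This gave 12 probe sets for the 9 genes, of 45037 probe sets and 18193 named genes in all. Each gene is represented by its brightest probe set, the one with the highest mean over all arrays, and its dimmer probe sets are given where they exist.

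RNA came from C57BL/6 mouse embryonic fibroblasts that lacked Stat5 and to which a mutant STAT5 had been returned with a retrovirus. Growth hormone signals through its receptor and JAK2 to STAT5, which is phosphorylated on a tyrosine and then binds DNA. There were 4 groups of 2 Affymetrix arrays, called biological duplicates in the series text: EA cells (a change of EE to AA that the labels place in a binding domain) given growth hormone for 120 minutes, EA cells without stimulation, YF cells (Y694F, at the phosphorylation site) given growth hormone for 120 minutes, and YF cells without stimulation. All 4 groups share the null background, and no group with unmutated STAT5 is analysed here. Each mutant was compared in 1 population of infected cells as far as the labels say, so a difference between EA and YF cells cannot be told apart from a difference between those populations.

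Retinoic acid is made from retinol in successive oxidations. Retinol dehydrogenases such as Rdh10 give retinal, and the Aldh1a enzymes turn retinal into retinoic acid. Crabp1 and Crabp2 carry retinoic acid in the cytoplasm, Cyp26 enzymes break it down, and the receptors Rara, Rarb and Rarg bind DNA with an RXR partner and switch genes on when retinoic acid is bound. Rarb is itself a classical target of the signal. In embryonic mesenchyme these enzymes and carriers are expressed in restricted regions, and the pathway is known for positional patterning.

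The values are log2 expression values as deposited, and 24773 of the 45037 probe sets (55.0%) averaged below 4. That dense group of dim probe sets is called the low group, and a difference with a side in it has an uncertain size. A call means a limma adjusted p under 0.05, adjusted over all 45037 probe sets, and an SE is limma's moderated standard error with n = 2 arrays per group. The first principal component held 69.9% of the variance and separated EA from YF arrays. On the second (12.6%), replicate 1 of YF with hormone scored 55.81, against 3.28 for its partner and -25.80 and -32.58 for unstimulated YF, so results with hormone are also given without that array. Stat5a averaged 4.57 in EA with hormone, 5.10 in EA without, 8.19 in YF with hormone and 7.88 in YF without, and differed by -3.20 between EA and YF over both treatments (SE 0.22, adjusted p = 0.000938). Those values are from its brightest probe set. A second Stat5a probe set lay in the low group (0.04, SE 0.04, adjusted p = 0.627), as did the Stat5b probe sets. The part of the transcript that each covers was not analysed here, so none of them checks the null background.

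Of the 9 genes, 5 differed between EA and YF cells without hormone, Crabp1 in the higher direction in EA and Rarb, Aldh1a1, Aldh1a3 and Cyp26b1 in the lower. That is 55.6% of the genes, against 15.0% of all named genes called in the same comparison. The members were chosen with earlier results of these data known, so such shares are description and not a test. With hormone 4 passed, Crabp1 higher and Aldh1a1, Aldh1a3 and Cyp26b1 lower (44.4%, against 13.5% of all genes), and all 4 passed again without replicate 1 of YF with hormone. Averaged over both treatments the same 5 genes passed as without hormone, against 22.9% of all genes. The members' median difference was -0.06 without hormone, -0.61 with hormone and -0.34 averaged, against -0.01, 0.06 and 0.02 over all genes. In all 3 cases the median member is Crabp2, which was not called. The count without hormone was 2 (Crabp1 and Cyp26b1) when replicate 1 of unstimulated EA or replicate 1 of unstimulated YF was left out, and 3 (Crabp1, Aldh1a3 and Cyp26b1) when the other replicate of either group was.

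**Figure D1:**
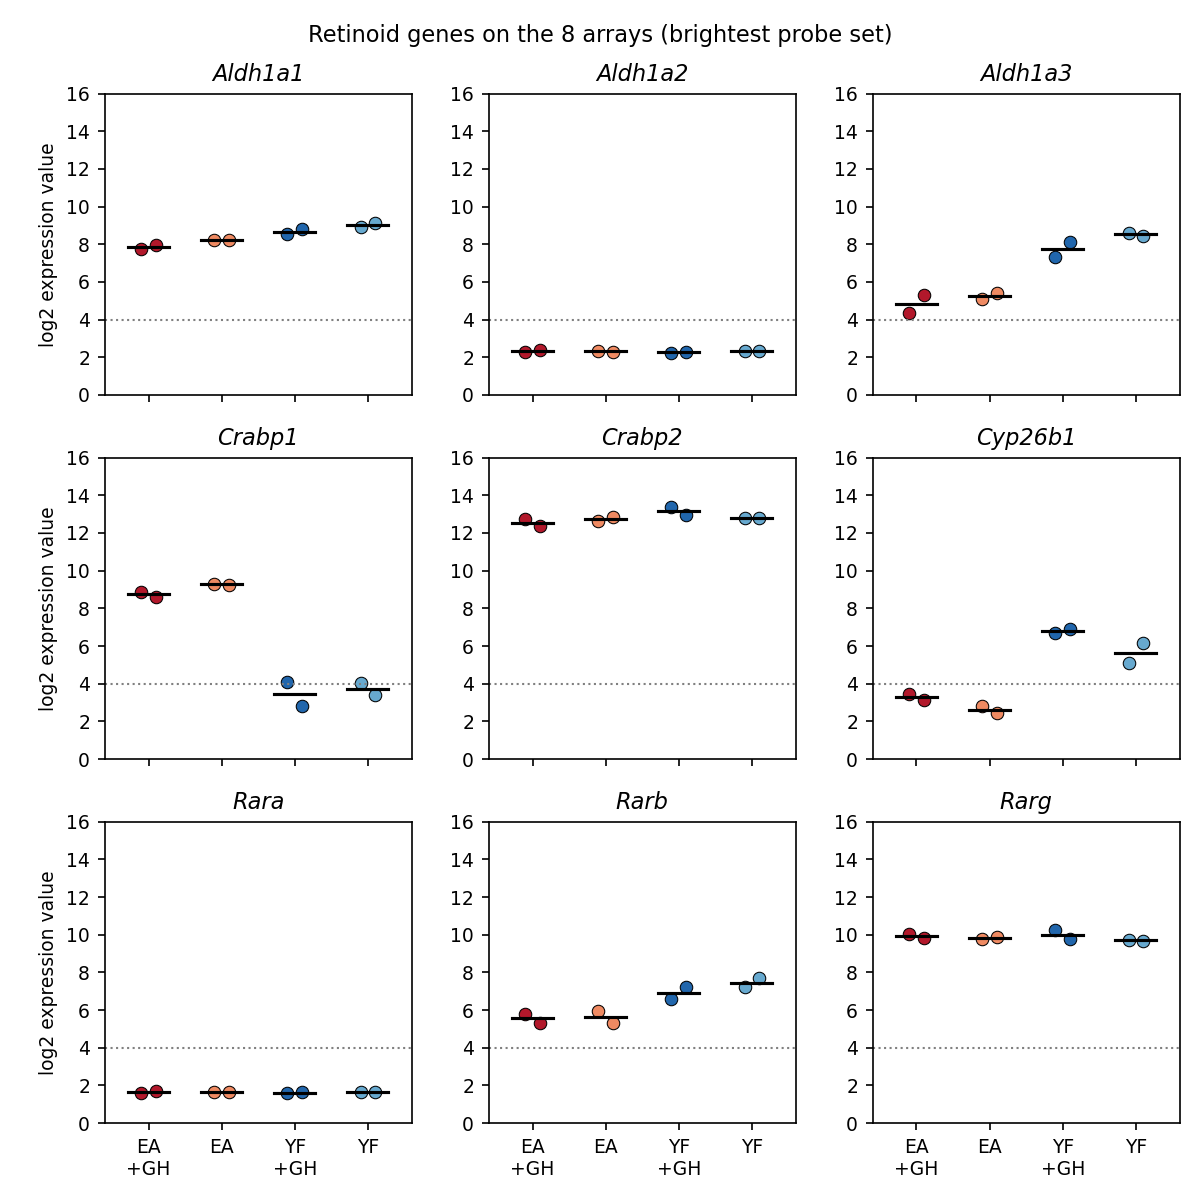
Log2 expression value of each of the 9 genes (brightest probe set) on the 8 arrays, by group from left to right: EA with growth hormone (+GH), EA without, YF with growth hormone and YF without. Points are arrays, bars are group means of 2 arrays and the dotted line at 4 bounds the low group; Crabp1 lies between 8.58 and 9.29 on the EA arrays and between 2.80 and 4.11 on the YF arrays.

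Of the 3 retinaldehyde dehydrogenases among the members, Aldh1a3 and Aldh1a1 were lower in EA cells and Aldh1a2 lay in the low group. Aldh1a3, a retinaldehyde dehydrogenase, had 4.37 and 5.32 in EA with hormone, 5.12 and 5.41 in EA without, 7.32 and 8.14 in YF with hormone, and 8.61 and 8.46 in YF without. All 4 EA arrays lay below all 4 YF arrays. Its EA minus YF difference was -3.27 without hormone (SE 0.40, adjusted p = 0.0087) and -2.88 with hormone (SE 0.40, adjusted p = 0.0136). Averaged over treatments it was -3.08 (SE 0.28, 95% interval -3.79 to -2.36, adjusted p = 0.0021), the 230th largest in size among the 18193 genes. Without hormone the call was lost when replicate 1 of EA or replicate 1 of YF was left out (differences of -3.13 and -3.20, adjusted p = 0.0522 in both fits). The difference with hormone was -3.29 (adjusted p = 0.0237) without replicate 1 of YF with hormone. The 2 dimmer Aldh1a3 probe sets stayed in the low group at 1.91 to 2.28 on every array and did not pass. In 1 of them the difference with hormone was -0.22 (SE 0.05, adjusted p = 0.056), and it passed without replicate 2 of YF with hormone (-0.29, adjusted p = 0.0263).

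Aldh1a1, a second retinaldehyde dehydrogenase, showed a smaller difference in the same direction. It had 7.73 and 7.95 in EA with hormone, 8.23 and 8.21 in EA without, 8.52 and 8.78 in YF with hormone, and 8.89 and 9.12 in YF without. Again no EA array reached a YF array. The EA minus YF difference was -0.78 without hormone (SE 0.13, adjusted p = 0.0221), -0.81 with hormone (SE 0.13, adjusted p = 0.021) and -0.80 averaged (SE 0.09, 95% interval -1.03 to -0.56, adjusted p = 0.00441). Leaving out any 1 of the unstimulated arrays ended the call without hormone (differences of -0.90 to -0.67, adjusted p of 0.0511 to 0.103). The call with hormone was lost without replicate 1 or 2 of EA with hormone (-0.70 and -0.92, adjusted p = 0.0729 and 0.0602) and without replicate 2 of YF with hormone (-0.68, adjusted p = 0.0538). Without replicate 1 of YF with hormone it was -0.94 (adjusted p = 0.0327). Aldh1a2, the main retinoic acid-forming enzyme of early mesoderm, stayed in the low group on all 8 arrays, at 2.24 to 2.39, with a difference of 0.02 averaged (SE 0.04, adjusted p = 0.744).

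Of the 2 retinoic acid carriers, Crabp1 was called between the mutants and Crabp2 was not. Crabp1 had 8.89 and 8.58 in EA with hormone, 9.29 and 9.25 in EA without, 4.11 and 2.80 in YF with hormone, and 4.03 and 3.42 in YF without. Each EA array lay more than 4 log2 units above every YF array, and both YF groups averaged in the low group. The difference was 5.54 without hormone (SE 0.45, adjusted p = 0.00287) and 5.28 with hormone (SE 0.45, adjusted p = 0.0034). Averaged it was 5.41 (SE 0.32, 95% interval 4.60 to 6.23, adjusted p = 0.000575), the 34th largest in size among the 18193 genes, and it passed in each of the 15 alternative fits of that average. With hormone it was 5.93 (adjusted p = 0.00291) when replicate 1 of YF with hormone was left out.

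Crabp2, which delivers retinoic acid to the receptors, was bright in every group. It had 12.72 and 12.38 in EA with hormone, 12.63 and 12.82 in EA without, 13.36 and 12.97 in YF with hormone, and 12.81 and 12.77 in YF without. The groups overlapped without hormone and not with it. Its EA minus YF difference did not pass without hormone (-0.06, SE 0.17, 95% interval -0.50 to 0.37, adjusted p = 0.933) or with hormone (-0.61, SE 0.17, 95% interval -1.05 to -0.17, adjusted p = 0.103). Without replicate 1 of YF with hormone, the brightest array for this gene, the difference with hormone was -0.42 (adjusted p = 0.304). Fabp5, the fatty acid-binding protein that also carries retinoic acid, did not pass on the brighter of its probe sets (averaged difference -0.26, SE 0.09, adjusted p = 0.135) and was lower in EA on the other (-0.74, SE 0.06, adjusted p = 0.0012).

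Cyp26b1, the enzyme that breaks retinoic acid down in mesenchyme and skin, was lower in EA cells. It had 3.47 and 3.16 in EA with hormone, 2.81 and 2.43 in EA without, 6.71 and 6.92 in YF with hormone, and 5.11 and 6.18 in YF without. Both EA groups lay in the low group and every YF array lay above it. The difference was -3.02 without hormone (SE 0.37, adjusted p = 0.00864), -3.50 with hormone (SE 0.37, adjusted p = 0.00597) and -3.26 averaged (SE 0.26, 95% interval -3.92 to -2.60, adjusted p = 0.0014). That average was the 195th largest in size among the 18193 genes. The call without hormone was lost in a fit of the compared groups alone (adjusted p = 0.061), and the call with hormone was lost with array weights (adjusted p = 0.051). Without replicate 1 of YF with hormone the difference with hormone was -3.60 (adjusted p = 0.0273). Cyp26a1, its paralog and a classical retinoic acid target, lay in the low group in all 4 groups (averaged difference 0.02, SE 0.02, adjusted p = 0.673).

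Of the 3 retinoic acid receptors, Rarb alone was called lower in EA cells. It had 5.80 and 5.33 in EA with hormone, 5.98 and 5.34 in EA without, 6.59 and 7.24 in YF with hormone, and 7.20 and 7.73 in YF without. No EA array reached a YF array, although the gap between the highest EA and the lowest YF array was narrower than for Aldh1a3 or Cyp26b1. The difference was -1.80 without hormone (SE 0.36, adjusted p = 0.0368) and -1.58 averaged over treatments (SE 0.25, 95% interval -2.22 to -0.94, adjusted p = 0.013). With hormone it was -1.35 and did not pass (SE 0.36, adjusted p = 0.0866; -1.68 without replicate 1 of YF with hormone, adjusted p = 0.0975). The call without hormone was among the least stable. It was lost without any 1 of the 4 EA arrays or the unstimulated YF arrays, with differences of -2.12 to -1.48 and adjusted p of 0.0674 to 0.162. The averaged call was lost without replicate 2 of EA with hormone (-1.46, adjusted p = 0.0549).

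Rarg was bright and did not differ by a call. It had 10.04 and 9.82 in EA with hormone, 9.79 and 9.87 in EA without, 10.25 and 9.78 in YF with hormone, and 9.73 and 9.68 in YF without. The averaged difference was 0.02 (SE 0.12, 95% interval -0.27 to 0.31, adjusted p = 0.924). Its dimmer probe set lay in the low group, at 2.27 to 2.56. Rara lay in the low group on its only probe set, at 1.62 to 1.70 on all 8 arrays (averaged difference 0.01, SE 0.03, adjusted p = 0.79), so this probe set gave no level clear of the low group. In bulk RNA, fewer cells with a transcript and less transcript per cell cannot be told apart for any of these genes.

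**Figure D2:**
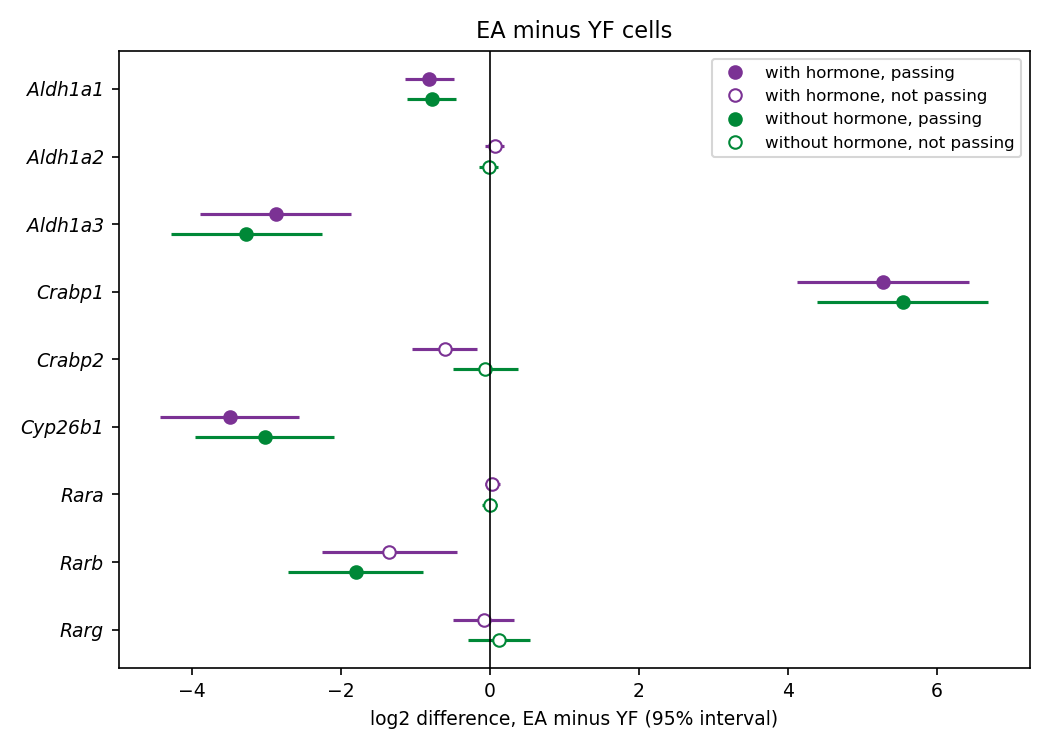
EA minus YF difference in log2 expression value for each gene (brightest probe set), with hormone and without, with 95% intervals from limma (2 arrays per group). Filled points passed at an adjusted p under 0.05; Crabp1 alone lies far right of 0 (5.28 and 5.54), and Aldh1a3, Cyp26b1, Rarb and Aldh1a1 lie left of it.

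Promoter sequences are shown for Rarb and for the members with the highest and the lowest averaged difference, Crabp1 and Cyp26b1, because these moved with the mutant. Each runs 5′ to 3′ on the gene's strand over 300 bases, 250 before the annotated start and 50 from it onward, and comes from RefSeq on GRCm38.p6. The Rarb window is chr14:16575427-16575726 (minus strand), the Crabp1 window chr9:54764498-54764797 (plus strand) and the Cyp26b1 window chr6:84593761-84594060 (minus strand). Capitals mark matches to the motifs searched.
Rarb: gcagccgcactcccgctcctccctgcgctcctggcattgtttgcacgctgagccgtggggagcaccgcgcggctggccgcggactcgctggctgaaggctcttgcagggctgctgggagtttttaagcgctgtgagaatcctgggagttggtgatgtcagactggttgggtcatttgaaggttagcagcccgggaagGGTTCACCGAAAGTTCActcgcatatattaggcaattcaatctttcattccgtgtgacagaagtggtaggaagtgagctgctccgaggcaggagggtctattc
Crabp1: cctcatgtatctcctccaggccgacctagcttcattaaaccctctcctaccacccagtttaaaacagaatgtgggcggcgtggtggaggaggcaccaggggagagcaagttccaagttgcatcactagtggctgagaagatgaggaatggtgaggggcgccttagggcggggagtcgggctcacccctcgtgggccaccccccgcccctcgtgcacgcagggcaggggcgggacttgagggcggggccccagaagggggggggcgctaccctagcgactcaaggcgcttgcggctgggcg
Cyp26b1: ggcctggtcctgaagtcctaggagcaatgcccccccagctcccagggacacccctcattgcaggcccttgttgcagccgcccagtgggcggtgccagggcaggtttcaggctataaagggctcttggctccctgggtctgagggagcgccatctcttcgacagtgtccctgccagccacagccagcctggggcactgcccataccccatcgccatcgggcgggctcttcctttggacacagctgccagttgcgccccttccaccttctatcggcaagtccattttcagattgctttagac

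The motifs searched on both strands were the receptor core AGGTCA, direct repeats of it with 1, 2 or 5 bases between, the same repeats with degenerate cores (A or G, then G, then G or T, then TCA), and the STAT motif TTCNNNGAA. Windows were at hand for 7 of the 9 genes, 12 windows in all, since some genes have several starts. The Rarb window held 1 degenerate repeat with a 5-base spacer, from position -53 to -37 relative to the start, and a TTCNNNGAA match at -51 to -43 lies inside that repeat. Repeats of this kind were found in 0.0974% of the 32851 windows of the same length and TTCNNNGAA in 8.30%. A further TTCNNNGAA match lay in 1 of the 4 Rara windows, and AGGTCA, found in 16.3% of all windows, lay in 1 Rara and 1 Rarg window. The Crabp1, Cyp26b1, Aldh1a1 and Aldh1a2 windows held none of these letters. A match describes the sequence and says nothing of binding in these cells.

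None of the 9 genes passed in limma for the response to growth hormone. In EA cells 0.198% of all named genes were called, in YF cells 0.198%, and averaged over mutants 0.319%. At an unadjusted p under 0.05 there was 1 member in EA cells, Aldh1a1, and there were 2 in YF cells, Aldh1a1 and Cyp26b1, which were also the 2 members below it in the average. Among all named genes 6.91% lay below it in EA cells, 14.1% in YF cells and 10.1% in the average. Counts of 1 or 2 among 9 members are description only and were not tested against these shares. Socs2, a STAT5 target and feedback inhibitor outside the retinoid genes, rose with hormone in EA cells by 4.84 (adjusted p = 0.0286, SE 0.34). In YF cells its difference was -0.30 (adjusted p = 0.586, SE 0.34). A second Socs2 probe set rose by 5.51 in EA (SE 0.16, adjusted p = 0.00344). In YF, inside the low group, it differed by 0.40 (SE 0.16, adjusted p = 0.449), so the sign in YF depended on the probe set. The remaining Socs2 probe sets stayed in the low group.

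Aldh1a1 had lower values with hormone in both mutants. The hormone minus none difference was -0.38 in EA (SE 0.13, adjusted p = 0.75) and -0.35 in YF (SE 0.13, adjusted p = 0.413), and the arrays with and without hormone did not overlap within either mutant. Without replicate 1 of YF with hormone the YF difference was -0.22 (adjusted p = 0.948). Averaged over mutants it was -0.37 (SE 0.09, 95% interval -0.60 to -0.13, adjusted p = 0.336). Cyp26b1 had higher values with hormone, by 0.69 in EA inside the low group (SE 0.37, adjusted p = 0.869) and by 1.17 in YF (SE 0.37, adjusted p = 0.357). The YF difference was 0.63 without replicate 1 of unstimulated YF (adjusted p = 0.575) and 1.27 without replicate 1 of YF with hormone (adjusted p = 0.698). Its average was 0.93 (SE 0.26, 95% interval 0.27 to 1.59, adjusted p = 0.404).

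Crabp1 differed with hormone by -0.53 in EA (95% interval -1.69 to 0.62) and Aldh1a3 by -0.41 (95% interval -1.43 to 0.60), with adjusted p of 0.869 for both. The Aldh1a3 value in EA turned on single arrays, at 0.06 without replicate 1 of EA with hormone and -0.89 without replicate 2 (adjusted p = 0.937 and 1). In YF cells Aldh1a3 differed by -0.81 (95% interval -1.82 to 0.21, adjusted p = 0.515) and Rarb by -0.55 (95% interval -1.46 to 0.35, adjusted p = 0.546). Without replicate 1 of YF with hormone, which held the lowest YF value of both genes, these were -0.40 and -0.23 (adjusted p = 0.948 for both). These intervals of Crabp1, Aldh1a3 and Rarb include both 0 and a fall of 1 log2 unit. No member's response differed between the mutants by a call, in a test that called 0.0220% of all named genes. At an unadjusted p under 0.05 it found 0 members and 11.0% of all named genes. The response of Crabp2 had the smallest p among the brightest probe sets (EA minus YF difference -0.55, SE 0.24, 95% interval -1.16 to 0.07, adjusted p = 0.446). It was -0.35 without replicate 1 of YF with hormone (adjusted p = 0.74).

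**Figure D3:**
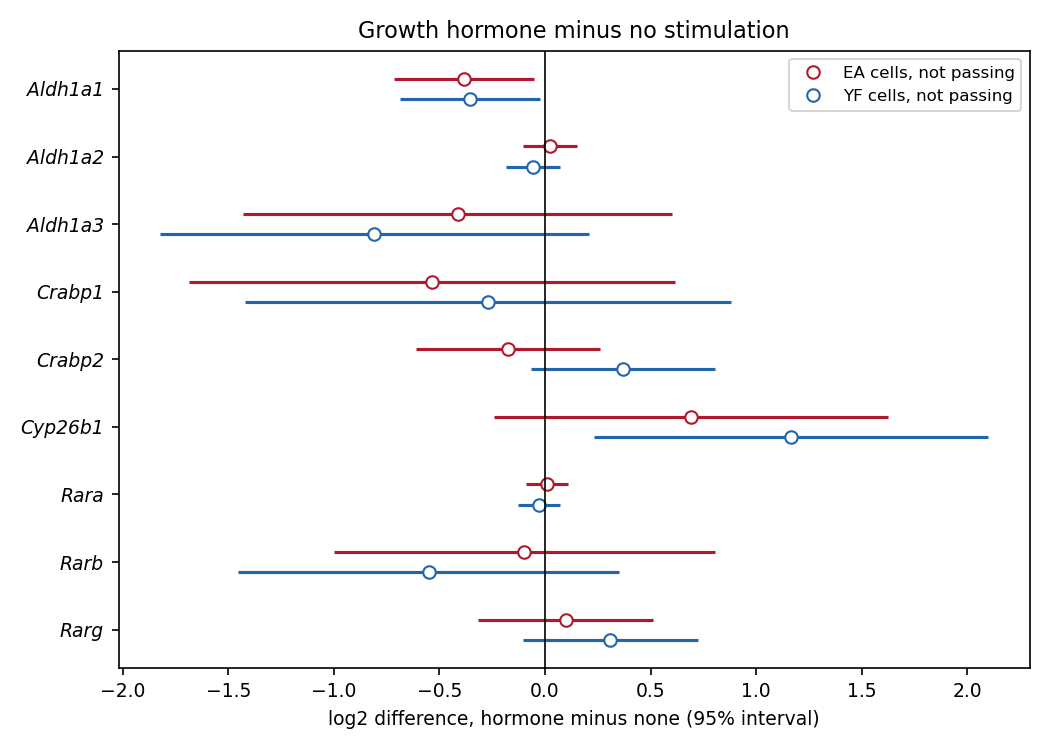
Hormone minus no stimulation difference in log2 expression value for each gene (brightest probe set), in EA and in YF cells, with 95% intervals from limma (2 arrays per group). Open points did not pass, which holds for every gene; Aldh1a1 lies left of 0 in both mutants (-0.38 and -0.35) and Cyp26b1 right of it (0.69 and 1.17).

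The rest of the retinoid pathway was described with 4 lists in the averaged EA minus YF comparison, in which 22.9% of all named genes were called and the median difference was 0.02. The lists were also chosen with earlier results known, so their shares are description only. Among retinoid dehydrogenases and oxidases, 7 of 19 measured genes passed (36.8%), 2 higher and 5 lower in EA, with a list median of 0.02. Rdh10, which oxidises retinol to retinal, averaged 9.44 in EA with hormone and 9.71 in EA without, against 11.35 in YF with hormone and 11.27 in YF without (difference -1.74, SE 0.07, adjusted p = 0.000202). A second Rdh10 probe set gave -1.42 (SE 0.13, adjusted p = 0.00224). Dhrs3, which reduces retinal back to retinol and is induced by retinoic acid, was lower as well (-1.24, SE 0.10, adjusted p = 0.00143).

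Adh7 and Adh1, alcohol dehydrogenases that accept retinol, were lower in EA. Adh7 differed by -5.37 (SE 0.22, adjusted p = 0.000194). Adh1 differed by -2.01 with part of EA in the low group (SE 0.33, adjusted p = 0.0136). The Adh1 call was lost without replicate 2 of EA with hormone (-1.89, adjusted p = 0.0597). The second Adh7 probe set gave -5.06 (SE 0.21, adjusted p = 0.000192). Cyp1b1, outside the naming rule and chosen after its value was seen, was the remaining lower gene (-0.65, SE 0.05, adjusted p = 0.00153). Higher in EA were Rdh9 (1.56, SE 0.15, adjusted p = 0.00258) and Rdh12 (1.52, SE 0.20, adjusted p = 0.00674), so the dehydrogenases did not move as 1 block.

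For retinol uptake and storage, 10 of 13 measured genes lay in the low group in every one of the 4 groups of arrays, among them Stra6, the membrane receptor for retinol-binding protein (difference 0.04, SE 0.03, adjusted p = 0.576). Retsat, which saturates retinol, was higher in EA (1.11, SE 0.08, adjusted p = 0.00106, and 1.36 on a second probe set, adjusted p = 0.00987). Lpl, a lipase that hydrolyses triglycerides and retinyl esters, was lower (-0.60, SE 0.07, adjusted p = 0.00536). Its difference was -0.91 without hormone (adjusted p = 0.00723) and -0.29 with hormone, where it did not pass (adjusted p = 0.186). Retsat and Lpl were the 2 genes that passed in the average, 15.4% of the list, with a median of 0.01.

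Of 14 measured receptor partners and cofactors, 3 passed (21.4%), with a median of 0.14. Rxra, the partner of the retinoic acid receptors, was slightly higher in EA, at 11.07 with hormone and 10.95 without, against 10.73 and 10.31 in YF (0.49, SE 0.06, adjusted p = 0.0067). The coactivator Ncoa1 was also higher (0.28, SE 0.06, adjusted p = 0.0298) and Ncoa3 lower (-0.76, SE 0.09, adjusted p = 0.00403), but other probe sets of Ncoa1 and Ncoa3 above the low group gave 0.85 and 0.01 and did not pass (adjusted p = 0.172 and 0.973). The count was 5 without replicate 1 of YF with hormone. The call of Ncoa1 was lost without either unstimulated EA array, replicate 2 of EA with hormone, replicate 1 of unstimulated YF or either YF array with hormone (0.23 to 0.30, adjusted p of 0.0548 to 0.10).

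Among genes known to be induced by retinoic acid in other settings, 8 of 20 measured passed (40.0%), 6 lower and 2 higher in EA, with a median of 0.01. Hoxb4, a positional homeobox gene, had the largest difference (-5.21, SE 0.08, adjusted p = 1.14e-05), with EA cells in the low group. The homeobox genes Meis1 (-2.32, SE 0.09, adjusted p = 0.000141) and Hoxa5 (-1.34, SE 0.14, adjusted p = 0.00331) and the transglutaminase Tgm2 (-2.14, SE 0.10, adjusted p = 0.000238) were lower too. The other members that passed lower were Dhrs3, given above, and Meis2 (-1.03, adjusted p = 0.000773, outside the naming rule). Higher were Rarres2, the chemerin gene (2.45, SE 0.12, adjusted p = 0.000285), and Rarres1 (0.76, adjusted p = 0.00225, outside the naming rule). Called genes of this list thus lay on both sides of 0.

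**Figure D4:**
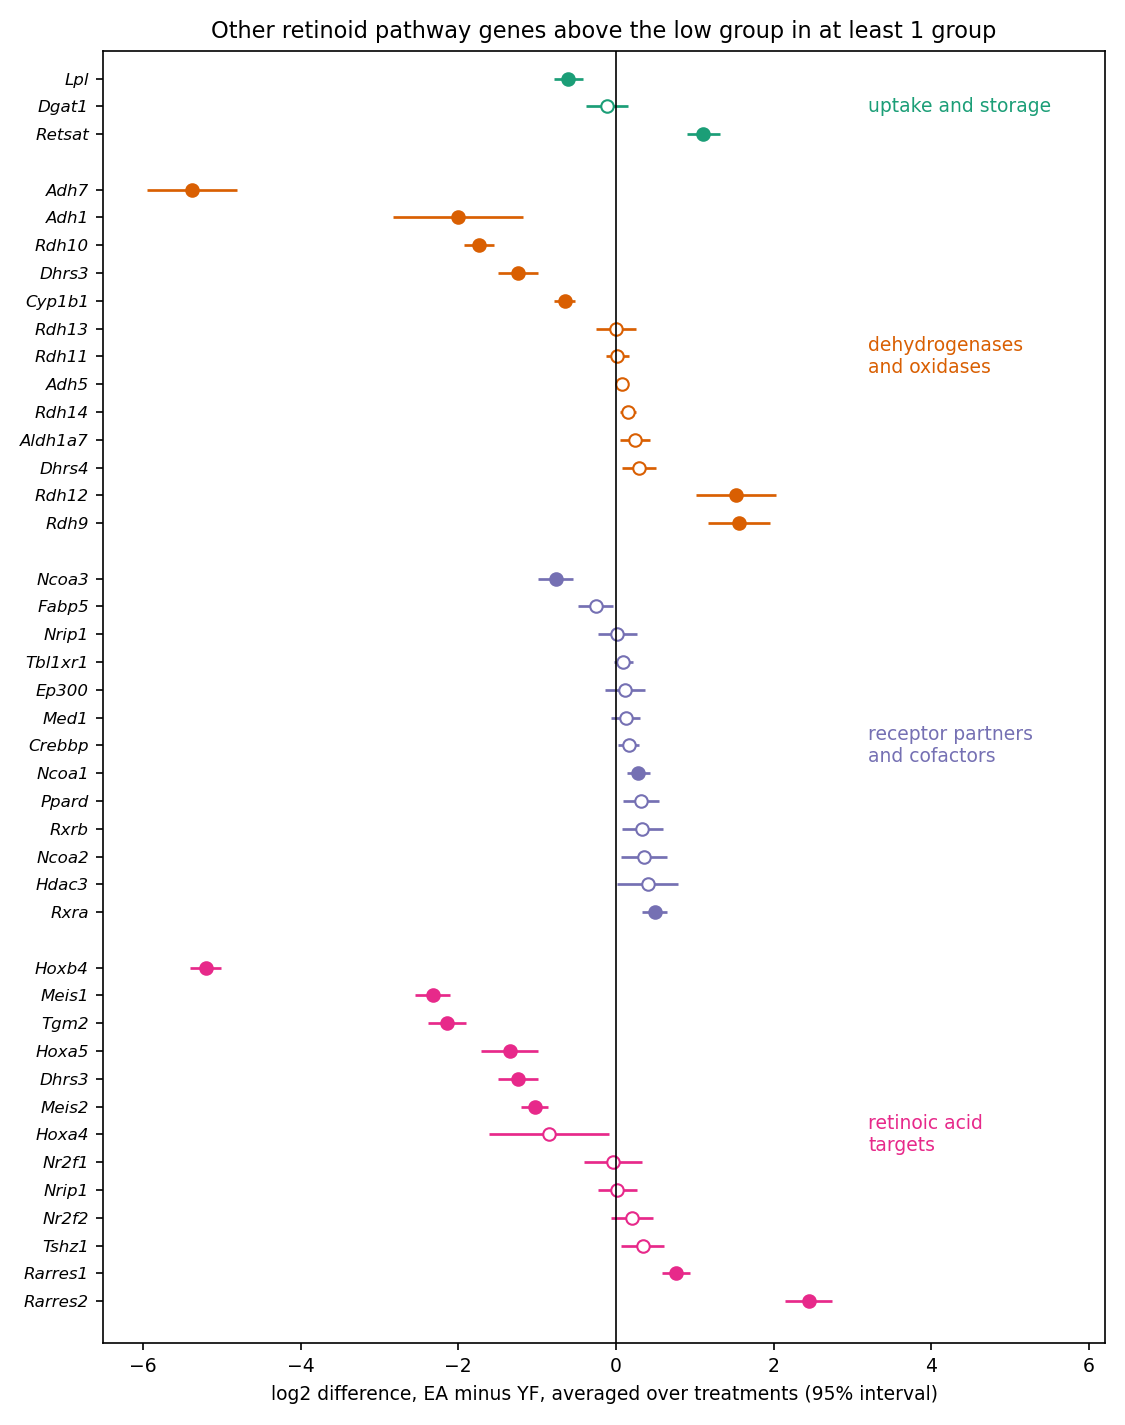
EA minus YF difference in log2 expression value, averaged over treatments, for the 40 other pathway genes with a mean of at least 4 in 1 or more groups, arranged by list, with 95% intervals from limma (4 arrays per side). Filled points passed at an adjusted p under 0.05, and Dhrs3 and Nrip1 appear in both lists that hold them; Adh7 and Hoxb4 lie farthest left (-5.37 and -5.21) and Rarres2 farthest right (2.45).

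The genes whose pattern over the 8 arrays was most like that of a member were found by the root mean square difference of log2 values, after each probe set's own mean was taken off, among 10772 genes with a mean of at least 4. For Crabp1 these were Col15a1 (0.34), Hhatl (0.38) and Efhd1 (0.43). For Aldh1a3 they were Cftr (0.24), Celf4 (0.28) and Plcl1 (0.31), and for Cyp26b1 they were Nfe2l3 (0.42), Slc35g1 (0.44) and Cdo1 (0.45). These 8 arrays are 4 groups of 2, and the level in EA against YF takes up most of each pattern.

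Marker lists of cell types were set beside these results in the averaged EA minus YF comparison, with its 22.9% of all genes called. They too were chosen with earlier results known. Of 10 fibroblast markers 5 passed lower in EA and 0 higher (50%), with a list median of -0.13. The mean of the list lay at 10.99 to 11.11 on the arrays of EA with hormone, 11.12 to 11.14 of EA without, 12.14 to 12.23 of YF with hormone and 12.04 to 12.13 of YF without. Thy1 and Dcn had by far the largest differences in it. Thy1, a fibroblast surface protein, differed by -4.96 (SE 0.09, adjusted p = 1.79e-05) and the proteoglycan Dcn by -4.45 (SE 0.21, adjusted p = 0.00026, with EA in the low group), while Col1a2 and Col3a1 lay at 14.46 to 14.66 in all groups. The other 3 that passed were Lum, S100a4 and Col1a1, with differences of -0.92, -0.24 and -0.24, and Lum lay in the low group in all groups of arrays. The markers not called were bright in all groups. Pdgfrb (0.28), Pdgfra (0.04), Vim (0.03) and Col1a2 (0.02) lay above 0 and Col3a1 (-0.02) below it. The Lum call was lost without any 1 EA array or unstimulated YF array (-1.01 to -0.83, adjusted p of 0.0586 to 0.0989), that of S100a4 without replicate 1 of unstimulated EA or YF (adjusted p = 0.0514 and 0.0533), and that of Col1a1 without any 1 array but replicate 2 of unstimulated EA and replicate 1 of unstimulated YF (adjusted p of 0.0621 to 0.103). Of 9 mesothelial and epithelial markers, 3 passed higher and 1 lower (44.4%). Msln (5.87, SE 0.08, adjusted p = 8.92e-06, with YF in the low group) and Krt19 (5.20, SE 0.28, adjusted p = 0.000422) were higher in EA. Wt1 was lower (-5.29, SE 0.19, adjusted p = 0.000123, with EA in the low group). Krt18, in the low group, was the fourth (0.39, adjusted p = 0.0364), and its call was lost without any 1 array but replicate 1 of unstimulated EA and replicate 2 of unstimulated YF (adjusted p of 0.0711 to 0.111). That list's mean was 3.88 to 3.95 in EA with hormone, 3.89 to 3.95 in EA without, 3.19 to 3.25 in YF with hormone and 3.15 to 3.28 in YF without, and Upk3b, Lrrn4, Krt8, Cdh1 and Epcam lay in the low group throughout.

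Of 6 macrophage markers (16.7% called, below the 22.9% of all genes) Cd68 alone passed (3.15, SE 0.15, adjusted p = 0.000259), with Ptprc, Adgre1 and Lyz2 in the low group throughout. Csf1r, above the low group in all 4 groups, lay in the other direction and did not pass (-0.38, SE 0.18, adjusted p = 0.307). Cd14 did not pass either (0.79, SE 0.23, adjusted p = 0.0842). The list median was 0.08. The list's mean was 5.33 to 5.53 in EA with hormone, 5.38 to 5.61 in EA without, 4.91 to 5.05 in YF with hormone and 4.61 to 4.78 in YF without. Of 5 endothelial markers (20.0% called, also below the share of all genes) Tek alone passed (-1.58, SE 0.16, adjusted p = 0.00263), and Pecam1, Cdh5, Kdr and Emcn lay in the low group. That mean was 3.32 to 3.44 in EA with hormone, 3.34 to 3.35 in EA without, 3.61 to 3.68 in YF with hormone and 3.68 to 3.76 in YF without. Of 6 neural and neural crest markers 2 passed lower (33.3%), Sox2 (-1.47, SE 0.13, adjusted p = 0.00203) and Tubb3, in the low group (-1.45, SE 0.17, adjusted p = 0.00423). Sox10, Pax6 and Ngfr lay in the low group. Map2 was bright, with group means of 12.33 to 12.73, and did not pass (-0.33, SE 0.09, adjusted p = 0.0739). The neural mean was 4.51 to 4.63 in EA with hormone, 4.51 to 4.59 in EA without, 5.04 to 5.40 in YF with hormone and 5.02 in YF without. The part of these markers in the differences of the retinoid genes was not tested.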

How the data were processed

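The authors deposited log2 values, 1 per probe set and array. The submitters' processing notes name GCOS and RMA; settings, versions and order are not given. Total RNA was isolated with TRIzol and turned into biotinylated cRNA, per the labels' protocols. Array medians were 2.85 to 2.94, inside the low group, so they say little of the scale of brighter probe sets. The upper quartiles of the arrays were 9.04 to 9.14. No further normalization was applied in the main fit. The number of arrays limits the precision.

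Of 45101 probe sets, 64 controls were left out. Of the other 45037, 34945 had 1 symbol, 932 several and 9160 none; 34741 matched RefSeq (GRCm38.p6) by gene identifier, which changed 0 symbols. Limma 3.58.1 in R 4.3.3 (lmFit, eBayes) fitted 4 group means over all 8 arrays, with 4 residual and 1.26 prior degrees of freedom, tested 7 contrasts two-sided, and adjusted by Benjamini-Hochberg over 45037 probe sets. The code was tested on simulated data.

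The members, the pathway and marker lists and the rules were chosen with earlier results of these data known. In each pathway list genes that passed were named, up to 6 by size, with Rxra, Stra6, Rdh10 and Dhrs3 whatever their values. Fabp5 and Cyp26a1, which did not pass on their brightest probe sets, were named outside that rule. The lists held 14 uptake and storage genes, 22 enzymes, 16 partners and cofactors and 24 targets, of which some stand in more than 1. Only genes with a probe set of 1 symbol were used. Likeness was sought for members whose group means spanned more than 2. Alternatives were other normalizations, another variance prior, array weights, fewer arrays, a filter on dim probe sets and a replicate block.

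The labels state no pairing by replicate number, and the main fit used none. The correlation of replicate deviations between groups over probe sets was -0.303 to 0.367. It was highest between EA with hormone and YF with hormone, and lowest between unstimulated EA and YF with hormone. Whether some arrays share a batch was not tested. Where nothing says that duplicates came from separate cultures, p-values measure the spread between these samples.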

Additional observations from a re-analysis of the deposited data

How the results depend on the processing

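No called difference of a member changed sign under any alternative tried. Over the members' probe sets and the 7 comparisons, 1273 alternative values were computed: 1239 stayed on the same side of the threshold, 25 lost a call and 9 gained one, and 68 that passed in neither fit differed in sign. The number of members passing between EA and YF cells without hormone was 5, was 3 in a fit of the compared groups alone, and was 2 to 5 when 1 array was left out. With hormone it was 4, and was 2 both with array weights and in a fit of the compared groups alone, where fewer arrays estimate the spread; leaving out 1 array gave 3 to 4. The average gave 5, or 4 to 5 with 1 array left out. Quantile normalization ended the call of Aldh1a1 with hormone (-0.76, adjusted p = 0.0531) and centring the arrays ended that of Rarb without hormone (-1.78, adjusted p = 0.0553); the cause was not tested. With the replicate block the counts were 4 without hormone (Rarb was lost, adjusted p = 0.0726), 4 with hormone and 5 in the average, and 0 in all 4 hormone comparisons. A block with the numbers of the unstimulated EA arrays crossed, chosen after seeing the data because their deviations correlated at -0.213 with those of EA with hormone, gave 5, 5 and 6. Limma-trend with a robust prior gave 6 with hormone, adding Crabp2 and Rarb. No member passed a hormone comparison in any fit. For the pathway and marker genes in the averaged comparison, 36 of 477 alternative values lost a call and 0 changed sign, and of 60 list counts 2 moved beyond 1.5 times, both to 5 from 3 receptor partners and cofactors (limma-trend, and without replicate 1 of YF with hormone). Dim probe sets limit what can be said of Rara and Aldh1a2, and of the size of the Crabp1 and Cyp26b1 differences.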
